A study of Mus musculus with 8 samples.

Results

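Chemokines and chemokine receptors were followed in splenic cDC1, the type 1 conventional dendritic cells that present antigen to CD8 T cells, after the cells had been sorted by a mitochondrial dye signal. The members are the genes whose symbol in the platform annotation starts with Ccl, Cxcl, Cx3cl or Xcl (ligands) or with Ccr, Cxcr, Cx3cr or Ackr (receptors), with Ccr9 and Xcr1 left out. This rule found 59 genes on 60 probe sets, of 19505 named genes and 22206 probe sets tested. Of the members, 38 genes (39 probe sets) are ligands and 21 are receptors. The study comprised 8 Affymetrix whole-transcript arrays. Of these, 4 held TMRM/MG-high cells and 4 held TMRM/MG-low cells, all cDC1 from spleens of naive wild-type C57BL/6 mice. TMRM is a dye that gathers in mitochondria with their membrane potential, and the labels do not spell out MG or give the age of the mice. Replicates are numbered 1 to 4 in both fractions without saying which mice or sorts they came from. The p-values therefore cover the spread between these samples alone, and that spread may be technical.

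Chemokines are small secreted proteins that guide leukocytes along gradients. They are grouped by the spacing of their first cysteines into CC, CXC, CX3C and XC families, and they signal through receptors coupled to inhibitory G proteins. Atypical receptors (Ackr) bind chemokines without G protein signalling and remove or transport them. In dendritic cells, Ccr7 directs migration towards lymph node and T cell zones, and ligands such as Cxcl9, Cxcl10 and Ccl22 attract T cells.

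Most of the family did not differ detectably between the fractions. Of the 60 probe sets, 3 were higher in TMRM/MG-high cells and 0 lower by limma at an adjusted p under 0.05: the ligands Ccl22 and Cxcl10 and the receptor Ccr2. Over all 22206 probe sets, 5.28% were called higher and 2.96% lower, so the share called higher among the members (5.0%) lay near the background. At an unadjusted p under 0.05, 4 members were higher and 8 lower, 12 of 60 in all, against 15.3% and 10.1% of all probe sets (25.5% together). Values of the fractions were fully separated in 7 members (11.7%), 5 higher and 2 lower, against 16.1% of all probe sets (9.7% higher and 6.37% lower). Differences were under 0.2 on the log2 scale in either direction for 43 members (71.7%), and for 68.6% of all probe sets.

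**Figure D1:**
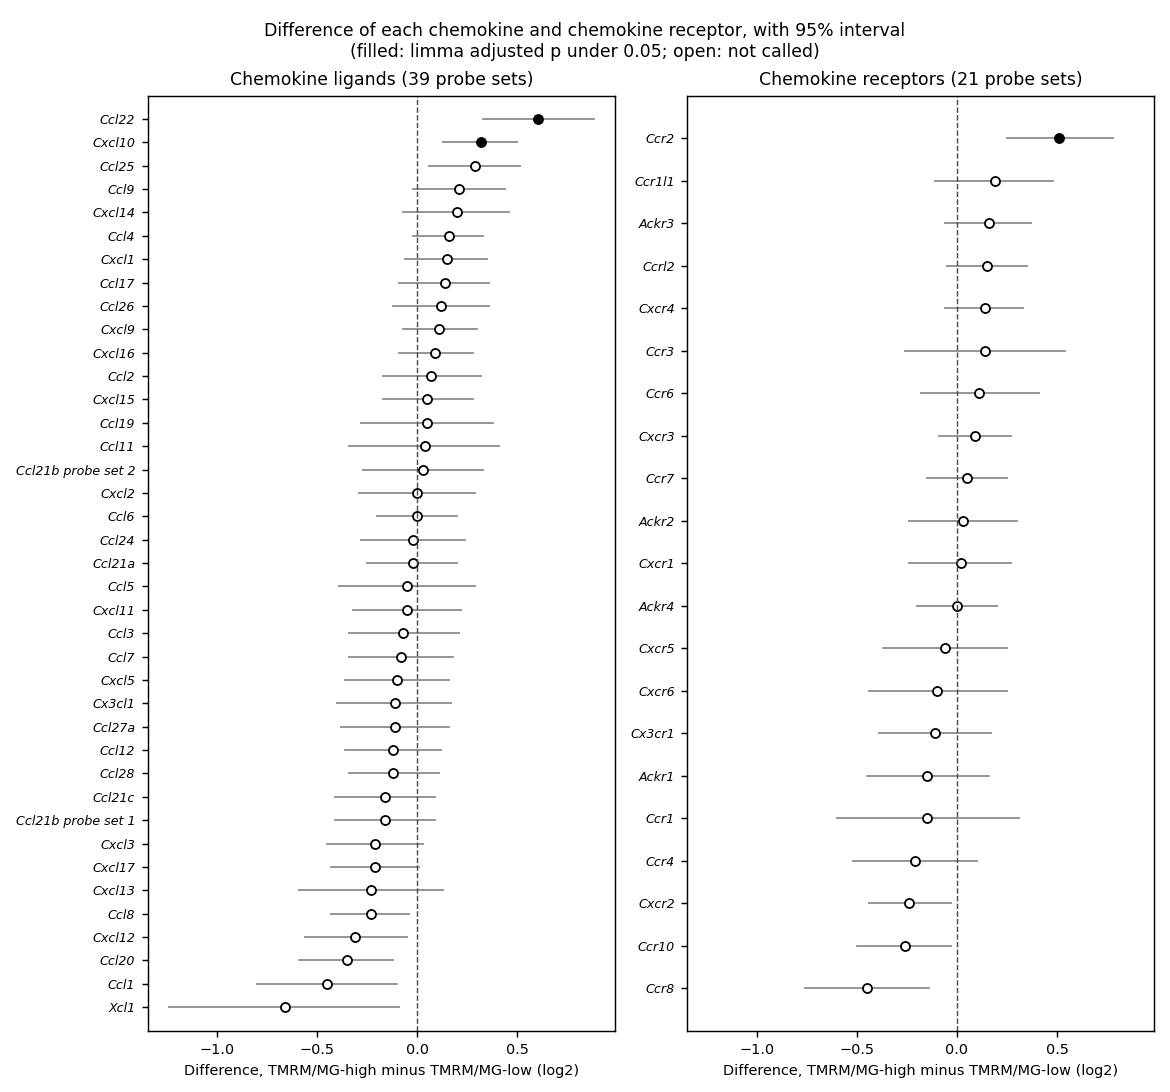
Difference of each member between the fractions (horizontal axis, log2, TMRM/MG-high minus TMRM/MG-low), for ligands on the left and receptors on the right, with 95% intervals from limma as lines. Filled points are called at an adjusted p under 0.05. Ccl22 (0.60), Cxcl10 (0.32) and Ccr2 (0.51) are filled, and Xcl1 has the lowest difference (-0.66) and the widest interval.

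Cell type markers, from lists chosen with earlier results of these data known, were read on the same arrays. The 12 cDC1 markers, such as Clec9a, Batf3 and Irf8, were all measured, none lay below the negative controls' median, and their mean level was 11.61 to 11.76 in the high and 11.58 to 11.84 in the low arrays. Plasmacytoid dendritic cell markers averaged 9.72 to 10.16 in the high and 9.0 to 9.20 in the low arrays (10 of 12 called higher). T cell markers averaged 8.33 to 8.60 in the high and 8.54 to 9.16 in the low arrays (5 of 8 called lower), and NK cell markers 8.77 to 9.52 and 9.02 to 9.94 (1 of 10 called higher and 0 lower). The median difference was -0.54 for T cell and -0.54 for NK cell markers. Only 2 of the 10 NK cell markers had a positive difference, and the called one was Klrk1 (0.54). Neutrophil markers averaged 8.19 to 9.14 in the high and 9.15 to 9.77 in the low arrays (1 of 9 called lower). Their median difference was -0.68, and 0 of 9 had a positive difference. In such bulk samples, fewer cells of a type and less RNA per cell cannot be told apart. The poly-A spike-ins, RNAs added to the sample, averaged 6.32 ± 0.44 on the TMRM/MG-high and 7.55 ± 0.28 on the TMRM/MG-low arrays (SD, 4 arrays per fraction; exact permutation p = 0.0286, two-sided, the smallest that 4 against 4 arrays can give).

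The intron control probe sets (5222 negative controls) mark what signal a probe set can give without a mature transcript. Their median was 6.86 in TMRM/MG-high and 6.75 in TMRM/MG-low arrays, and their 95th percentile was 10.001 and 9.881. Of the members, 8 (13.3%) had means below that median in both fractions, against 23.9% of all probe sets: the ligands Ccl8, Ccl12, Ccl26, Cxcl14 and Cxcl15 and the receptors Ccr4, Ccr1l1 and Ackr4. Cxcl11, Ccr8 and Ackr1 lay below it in the high fraction alone. The size of a difference is uncertain for these 11 members, none of which was called. Means above the 95th percentile in at least 1 fraction were found for 13 members (21.7%, against 22.0% of all probe sets), of which 7 exceeded it on all 8 arrays: Ccl3, Ccl4, Ccl6, Cxcl9, Cxcl16, Ccr7 and Cxcr4. Of the called members, Ccl22 exceeded it on 3 arrays, and Cxcl10 and Ccr2 on none of the 8. The signals of Cxcl10 and Ccr2 thus lay within the range of the negative controls.

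**Figure D2:**
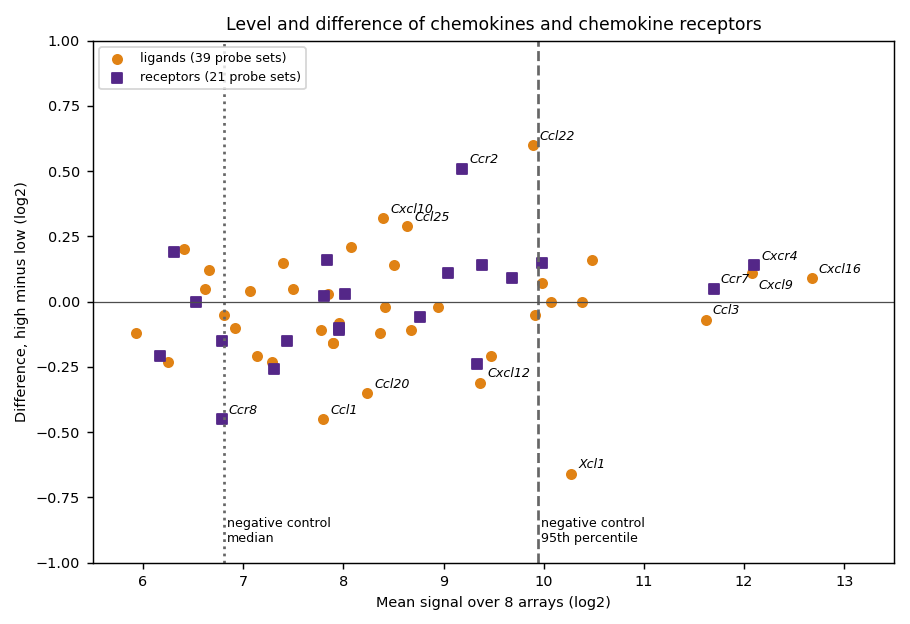
Mean signal of each member over the 8 arrays (horizontal axis, log2) and its difference, TMRM/MG-high minus TMRM/MG-low (vertical axis, log2). Circles are ligands, squares are receptors, and the vertical lines mark the median (dotted) and 95th percentile (dashed) of the negative controls, each averaged over the fractions. Signals of different probe sets depend on their probes and do not rank the genes; the points to the right of the dashed line, such as Cxcl16, Cxcr4 and Ccr7, lie close to 0 apart from Xcl1.

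The 250 bases before the start of the 3 called members are printed because these are the members called between the fractions. They come from RefSeq (GRCm38.p6), in which 44 of the 59 members were matched to promoters. Capitals mark matches, on either strand, to the kappa B consensus (bound by NF-kB) or to the ISRE core, written GAAA, any 2 bases and GAAA (bound by interferon-activated factors).
Ccl22 (chr8:94745434-94745683, plus strand): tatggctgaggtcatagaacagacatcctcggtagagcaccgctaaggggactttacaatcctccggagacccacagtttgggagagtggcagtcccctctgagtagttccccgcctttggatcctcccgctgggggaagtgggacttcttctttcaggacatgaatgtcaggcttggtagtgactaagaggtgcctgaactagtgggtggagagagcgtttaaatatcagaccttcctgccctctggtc
Cxcl10 (chr5:92348890-92349139, minus strand): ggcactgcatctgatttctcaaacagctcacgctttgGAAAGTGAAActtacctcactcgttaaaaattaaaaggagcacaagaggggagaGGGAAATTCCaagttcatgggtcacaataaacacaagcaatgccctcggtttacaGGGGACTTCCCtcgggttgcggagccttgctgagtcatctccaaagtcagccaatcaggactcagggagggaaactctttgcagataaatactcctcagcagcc
Ccr2 (chr9:124101933-124102182, plus strand): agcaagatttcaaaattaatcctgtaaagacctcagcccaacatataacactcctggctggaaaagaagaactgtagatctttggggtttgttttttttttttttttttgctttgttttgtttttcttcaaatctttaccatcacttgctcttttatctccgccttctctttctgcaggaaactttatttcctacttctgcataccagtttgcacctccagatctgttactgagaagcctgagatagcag
The Cxcl10 window held 1 ISRE core, 213 to 204 bases before the start, and kappa B matches at 159 to 150 bases and, overlapping each other, at 104 to 94 bases. The Ccl22 and Ccr2 windows held neither set of letters. Among all 32851 RefSeq promoters, 7.25% had a kappa B match and 2.98% an ISRE core in these 250 bases. Of the 50 promoters of members, 12 (24.0%) and 3 (6.0%) had them. The ISRE core was found in Cxcl10, Ccl19 and Cxcl14. These matches are a description of letters and were not tested against expression.

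Among the CC ligands, Ccl22, which attracts CCR4-bearing T cells including regulatory T cells, was higher in TMRM/MG-high cells. Its signal was 10.06, 10.37, 10.34 and 9.99 in high replicates 1 to 4, and 9.48, 9.54, 9.91 and 9.42 in low replicates 1 to 4. Every high array lay above every low array, by the least between high replicate 4 and low replicate 3. The difference was 0.60 (SE 0.13, limma adjusted p = 0.0187), or 1.52-fold, with a 95% interval of 0.33 to 0.88. On leaving out 1 array at a time, the call held in 3 of 8 omissions (without high replicate 1, high replicate 4 or low replicate 3) and the highest adjusted p was 0.0643. When the spike-in level entered the fit as a covariate, Ccl22 differed by 0.28 and was not called (limma adjusted p = 1.0). That level did not overlap between the fractions, so this fit can hardly separate the 2 and does not decide the Ccl22 result.

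Ccl22 lies beside Cx3cl1 and Ccl17 in the RefSeq gene order of chromosome 8. Ccl17, the other CCR4 ligand, had 8.83, 8.42, 8.54 and 8.54 in high arrays, and 8.47, 8.44, 8.29 and 8.58 in low arrays. Cx3cl1, the membrane-bound ligand of Cx3cr1, had 7.89, 7.80, 7.78 and 7.41 in high arrays and 8.16, 7.68, 7.68 and 7.82 in low arrays. Both overlapped between the fractions. Their differences were 0.14 (95% interval -0.09 to 0.36) and -0.11 (-0.40 to 0.17), neither called, and whether either differs from that of Ccl22 was not tested. Ccr4 itself lay below the negative control median on all 8 arrays. Of 12 measured maturation genes of dendritic cells, only Cd83, a surface marker of mature dendritic cells, was called (0.29, SE 0.081, limma adjusted p = 0.0484). Cd40 followed without being called (0.28, limma adjusted p = 0.0706). Of the 12, 9 had a positive difference, and the median was 0.08. The mean level of that list was 11.06 to 11.19 in the high and 10.97 to 11.16 in the low arrays. The part of these genes in the Ccl22 result was not tested.

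Inflammatory CC ligands, which recruit monocytes, T cells and NK cells, showed small differences. Ccl3 had 11.62, 11.64, 11.24 and 11.80 in high arrays, and 11.73, 11.73, 11.39 and 11.73 in low arrays. Ccl4 had 10.68, 10.55, 10.51 and 10.51 in high arrays, and 10.45, 10.39, 10.31 and 10.45 in low arrays. Ccl4 did not overlap, but its difference of 0.16 (95% interval -0.02 to 0.33, limma adjusted p = 0.248) was not called, and Ccl3 overlapped with a difference of -0.07 (-0.34 to 0.21). Ccl5, which T and NK cells also make, had 9.74, 10.01, 9.73 and 10.07 in high arrays, and 9.71, 10.45, 9.71 and 9.87 in low arrays. The highest value was that of low replicate 2, and the difference was -0.05 (-0.39 to 0.29). Ccl6, a CC ligand of rodents, had 10.25, 10.38, 10.34 and 10.56 in high arrays, and 10.24, 10.46, 10.42 and 10.42 in low arrays. Ccl2, the main ligand of Ccr2, had 9.94, 10.25, 10.03 and 9.87 in high arrays, and 10.02, 9.80, 10.17 and 9.80 in low arrays. Both overlapped, with differences of -0.00 and 0.07. The neighbouring cluster members Ccl7 (-0.08) and Ccl11 (0.04), and Ccl9 (0.21, 95% interval -0.02 to 0.44), were not called.

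Several other CC ligands were near the threshold without passing it. Ccl20, the ligand of Ccr6, had 8.17, 7.81, 8.22 and 8.04 in high arrays, and 8.46, 8.57, 8.26 and 8.36 in low arrays. Every high array lay below every low array, and the difference was -0.35 (SE 0.11, limma adjusted p = 0.0649). On leaving out 1 array at a time, it ranged from -0.41 to -0.27 and was called in 1 of 8 omissions. That was without low replicate 3 (-0.40, adjusted p = 0.0452), and the highest adjusted p was 0.179. The difference of Ccl20 was -0.11 with the spike-in covariate (adjusted p = 1.0). Ccl1, a ligand of Ccr8, had 7.56, 7.80, 7.69 and 7.23 in high arrays, and 8.25, 8.22, 8.04 and 7.55 in low arrays. Its groups overlapped through low replicate 4, and the difference was -0.45 (SE 0.16, adjusted p = 0.107). Among the omissions of 1 array it was called only without low replicate 4 (-0.60, adjusted p = 0.0372). It was also called with the replicate block (adjusted p = 0.0264). Ccl25, the ligand of Ccr9, had 8.76, 8.72, 8.85 and 8.79 in high arrays, and 8.20, 8.55, 8.59 and 8.64 in low arrays. Its groups did not overlap, and the difference was 0.29 (SE 0.10, adjusted p = 0.109).

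The ligands of Ccr7, which stromal cells of lymphoid organs secrete, were not called. Ccl19 differed by 0.05 (95% interval -0.28 to 0.38) and Ccl21a by -0.02 (-0.25 to 0.20). The probe set of Ccl21c and 1 of 2 probe sets of Ccl21b held the same values on every array (-0.16 each), so they are 1 measurement, and the second Ccl21b probe set differed by 0.03. The Ccl21 genes are near-identical copies, and their probes may be shared. Of the remaining CC ligands, Ccl24 (-0.02), Ccl27a (-0.11) and Ccl28 (-0.12) were not called.

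Among the CXC ligands, 3 are ligands of Cxcr3 that interferon induces and that attract activated T cells and NK cells. Cxcl10 had 8.61, 8.50, 8.52 and 8.61 in high arrays, and 8.15, 8.27, 8.39 and 8.15 in low arrays. Every high array lay above every low array, and the difference was 0.32 (SE 0.085, limma adjusted p = 0.0411), or 1.25-fold, with a 95% interval of 0.13 to 0.50. Cxcl9 had 12.21, 12.10, 12.10 and 12.10 in high arrays, and 12.01, 11.88, 12.16 and 12.01 in low arrays. Cxcl9 overlapped through low replicate 3 and differed by 0.11 (95% interval -0.07 to 0.30). Cxcl11 lay near or below the negative control median and differed by -0.05 (-0.32 to 0.22). Whether the differences of these ligands differ from each other was not tested.

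Of the 3 calls, that of Cxcl10 held under the fewest of the settings tried. Its adjusted p was 0.0573 after quantile normalization of the tested probe sets and 0.0627 after centring on array medians. On leaving out 1 array it was called only without low replicate 3 (highest adjusted p = 0.103 elsewhere), and the difference was 0.29 to 0.37 over the 8 omissions. The kappa B and interferon factors measured as a list had 1 of 14 genes called, Stat2, which transmits type I interferon signals (-0.54, SE 0.082, adjusted p = 0.00581). That list averaged 11.01 to 11.11 in the high and 11.12 to 11.22 in the low arrays, and its part in the Cxcl10 result was not tested.

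**Figure D3:**
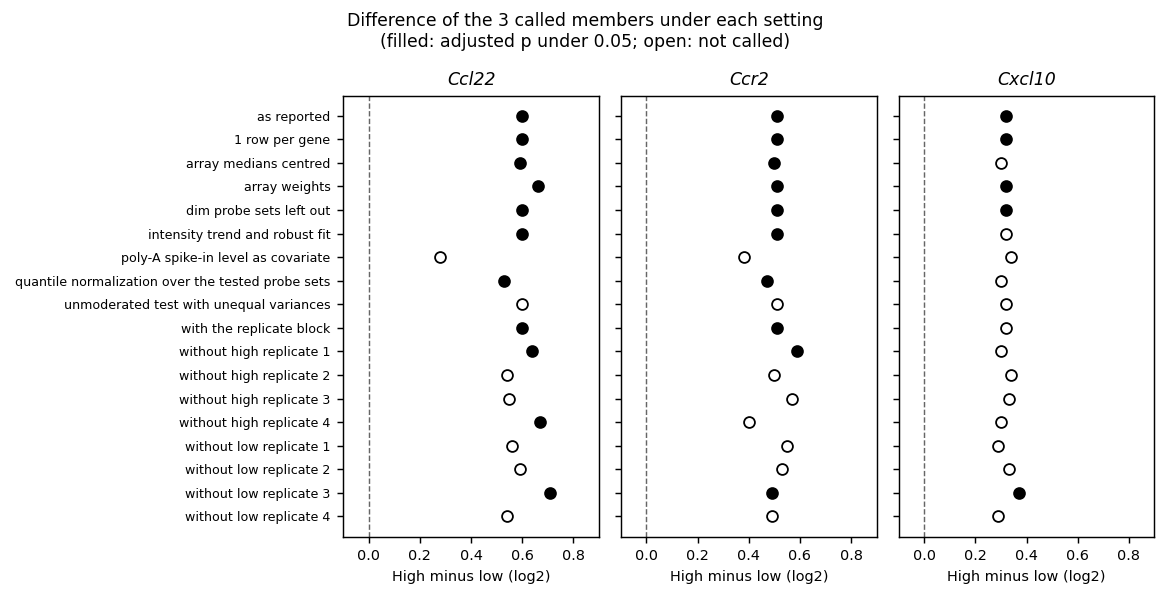
Difference of Ccl22, Ccr2 and Cxcl10 (horizontal axis, log2, TMRM/MG-high minus TMRM/MG-low) as reported and under each other setting (rows), including the omission of each array. Filled points are called at an adjusted p under 0.05. All points lie above 0, from 0.28 to 0.71 for Ccl22, from 0.38 to 0.59 for Ccr2 and from 0.29 to 0.37 for Cxcl10, and none is filled for the spike-in covariate or the unmoderated test.

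Cxcl16, a membrane-bound ligand that is also a scavenger receptor, had 12.83, 12.74, 12.72 and 12.59 in high arrays, and 12.56, 12.68, 12.69 and 12.57 in low arrays. The groups overlapped and the difference was 0.09 (95% interval -0.09 to 0.28), while its receptor Cxcr6 differed by -0.10 (-0.44 to 0.25). Cxcl2, a neutrophil-attracting ligand, had 10.16, 10.34, 9.95 and 9.82 in high arrays, and 10.12, 10.25, 10.16 and 9.76 in low arrays. The other ligands of Cxcr2 were not called either, with differences of 0.15 for Cxcl1, -0.21 for Cxcl3 and -0.10 for Cxcl5. Cxcl12, the homeostatic ligand of Cxcr4 made by stromal cells, had 9.28, 9.12, 9.19 and 9.24 in high arrays, and 9.55, 9.77, 9.17 and 9.57 in low arrays. Low replicate 3 lay among the high arrays while the other 3 low arrays lay above them, and the difference was -0.31 (SE 0.12, limma adjusted p = 0.126). This difference was called in 1 of 8 omissions of 1 array, without low replicate 3 (-0.42, adjusted p = 0.0175). Over the omissions it ranged from -0.42 to -0.22, with adjusted p up to 0.281. It turned to 0.03 with the spike-in covariate (adjusted p = 1.0). The 10 stromal and endothelial markers averaged 7.78 to 7.97 in the high and 7.76 to 7.98 in the low arrays. Of these, Kdr, an endothelial VEGF receptor, was called higher (0.72, SE 0.15, adjusted p = 0.0183) and Madcam1, an endothelial adhesion molecule, lower (-0.36, SE 0.10, adjusted p = 0.048), and their part in the Cxcl12 value was not tested. Cxcl13, the B cell attractant, differed by -0.23 (95% interval -0.59 to 0.13) and Cxcl17 by -0.21 (-0.43 to 0.01).

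Xcl1, the ligand of the cDC1 receptor Xcr1 and a product of NK cells and activated CD8 T cells, had the lowest difference of the family. Its signal was 9.84, 10.18, 9.68 and 10.09 in high arrays, and 10.86, 11.32, 9.71 and 10.54 in low arrays. Low replicates 1, 2 and 4 lay above every high array, and low replicate 3 lay within them. The difference was -0.66 (SE 0.26, 95% interval -1.24 to -0.09, limma adjusted p = 0.143) and was not called. On leaving out 1 array at a time, it ranged from -0.96 to -0.42 and was called in 1 of 8 omissions. That was without low replicate 3 (-0.96, limma adjusted p = 0.00994), and the highest adjusted p was 0.312. With the replicate block Xcl1 was called (adjusted p = 0.0478). Its sign turned, to 0.07, with the spike-in covariate (adjusted p = 1.0). The 10 NK cell markers averaged 8.99, 9.34, 8.77 and 9.52 in high arrays, and 9.55, 9.94, 9.02 and 9.89 in low arrays. The 8 T cell markers averaged 8.36, 8.49, 8.33 and 8.60 in high arrays, and 9.16, 9.13, 8.54 and 9.06 in low arrays. Low replicate 3 was thus the lowest low array for Xcl1 and for both lists, and none of these markers lay below the negative control median in both fractions. Their part in the Xcl1 result was not tested.

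**Figure D4:**
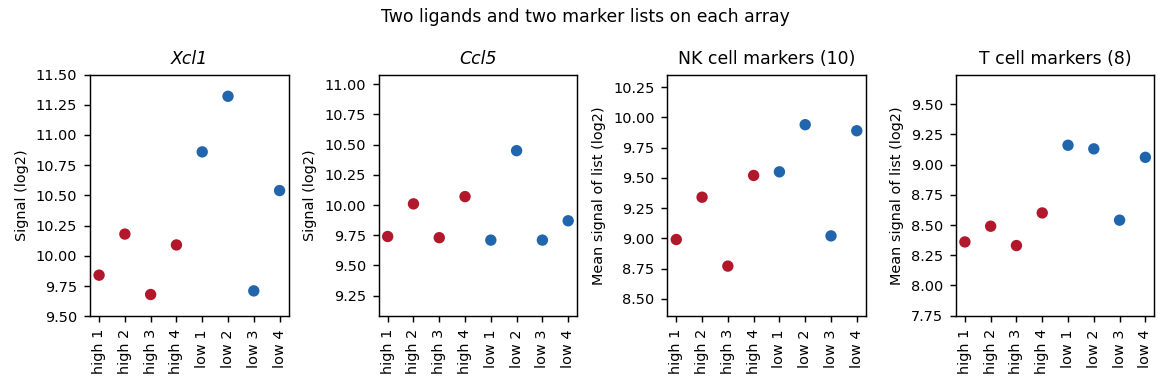
Signal (vertical axes, log2) of Xcl1 and Ccl5, and mean signal of the NK and T cell marker lists, on each array (horizontal axes; TMRM/MG-high replicates in red, then TMRM/MG-low in blue). Low replicate 3 has the lowest Xcl1 (9.71), NK marker (9.02) and T cell marker (8.54) values of the low arrays.

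Among the receptors, Ccr2, which draws monocytes and dendritic cell precursors out of the bone marrow and into inflamed tissue, was higher in TMRM/MG-high cells. Its signal was 9.21, 9.50, 9.28 and 9.78 in high arrays, and 9.05, 8.98, 8.85 and 8.85 in low arrays. The groups did not overlap, and high replicate 4 stood highest. The difference was 0.51 (SE 0.12, limma adjusted p = 0.0276), or 1.43-fold, with a 95% interval of 0.25 to 0.78. The call held in 2 of 8 omissions (without high replicate 1 or low replicate 3), and without high replicate 4 the difference was 0.40 (adjusted p = 0.0588). When the spike-in level entered the fit it was 0.38 and not called (adjusted p = 0.997).

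High replicate 4 was also the highest of the 8 arrays for plasmacytoid markers (10.16), for monocyte and macrophage markers (10.33) and for cDC2 markers (9.80). The same held for the 7 measured B cell markers (9.61), of which 0 were called. Over the arrays, the 10 monocyte and macrophage markers averaged 9.74 to 10.33 in the high and 9.75 to 9.99 in the low arrays, and 1 of them was called higher, Ly6c2, which monocytes and plasmacytoid dendritic cells both express (0.85, SE 0.13, adjusted p = 0.00677). The 11 cDC2 markers averaged 9.26 to 9.80 in the high and 9.23 to 9.60 in the low arrays, with 0 called. Their part in the Ccr2 result was not tested. Of the receptors the family rule leaves out, Ccr9, a gut-homing receptor that plasmacytoid dendritic cells carry, had 10.15, 10.52, 10.09 and 10.19 in high arrays and 8.76, 9.43, 9.69 and 9.29 in low arrays (0.94, SE 0.17, adjusted p = 0.0116). Xcr1 differed by 0.14 (SE 0.083, adjusted p = 0.305).

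**Figure D5:**
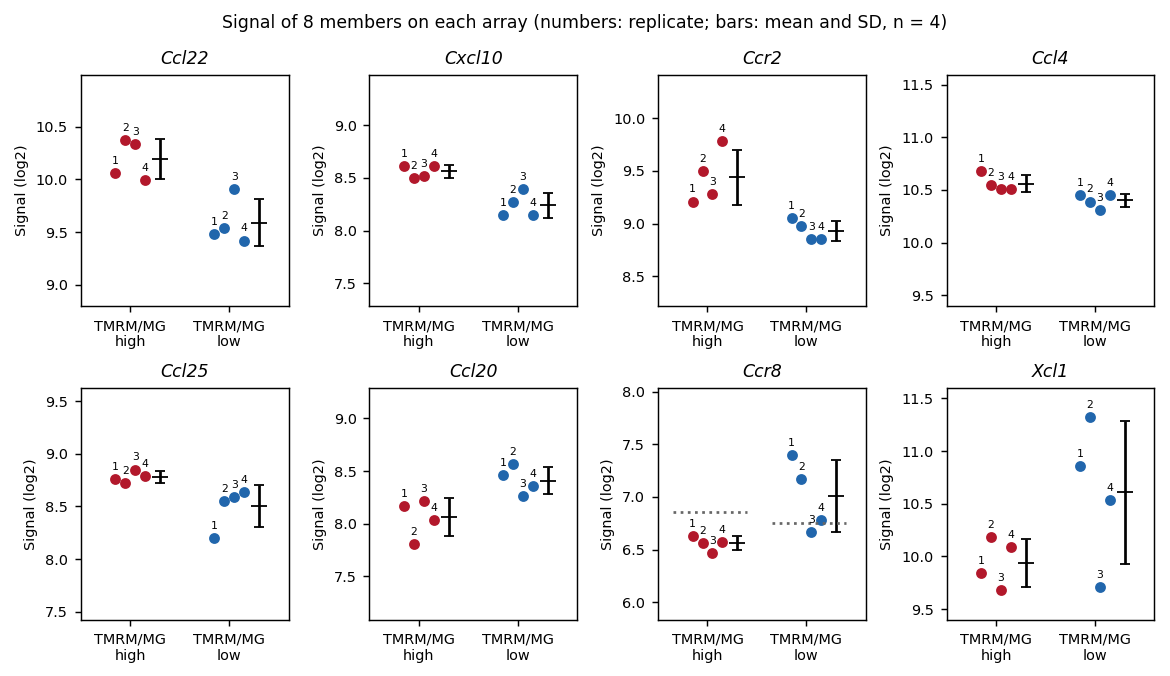
Signal (vertical axes, log2, the same span in each panel) of 8 members on the TMRM/MG-high arrays (red, left) and TMRM/MG-low arrays (blue, right). Numbers are replicates and bars are means with SD (n = 4); dotted lines in the Ccr8 panel are the negative control medians. Ccl22, Cxcl10, Ccr2, Ccl4 and Ccl25 are higher without overlap, Ccl20 and Ccr8 are lower without overlap, and the Xcl1 arrays overlap through low replicate 3.

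Ccr2 lies in a run of receptor genes on chromosome 9, and the other members of that run were not called. Ccr9 and Xcr1, which the family rule leaves out, were not placed in this gene order. Ccr3, an eosinophil receptor, had 9.0, 9.51, 9.24 and 10.09 in high arrays, and 9.20, 9.41, 9.31 and 9.34 in low arrays. High replicate 4 was again the highest, the groups overlapped, and the difference was 0.14 (95% interval -0.26 to 0.54). Ccr1 differed by -0.15 (-0.60 to 0.31), and the remaining members of the run, Ccr1l1 and Cxcr6, by 0.19 and -0.10. Ccrl2, an atypical receptor that presents chemerin, is not part of that run. It had 10.02, 10.15, 10.06 and 10.01 in high arrays, and 10.06, 9.70, 9.95 and 9.91 in low arrays. It overlapped through low replicate 1 and differed by 0.15 (-0.05 to 0.35).

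Ccr7, Cxcr4 and Cx3cr1 were not called. Ccr7 had 11.77, 11.71, 11.74 and 11.65 in high arrays, and 11.80, 11.80, 11.50 and 11.57 in low arrays. The high arrays lay inside the range of the low arrays, and the difference was 0.05 with a 95% interval of -0.15 to 0.25. Cxcr4, the receptor of Cxcl12, had 12.16, 12.12, 12.16 and 12.22 in high arrays, and 12.06, 11.81, 12.14 and 12.12 in low arrays. It overlapped, with a difference of 0.14 (-0.06 to 0.33). Cx3cr1, a receptor of monocytes and of some dendritic cells, had 7.90, 7.83, 7.58 and 8.29 in high arrays, and 8.07, 7.92, 7.98 and 8.07 in low arrays. High replicates 3 and 4 lay at either end of all 8 arrays, and the difference was -0.11 (-0.39 to 0.17). The lymphocyte-associated receptors Cxcr3 (0.09), Cxcr5 (-0.06) and Ccr6 (0.11) were not called.

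Of the receptors, 3 had a lower signal at an unadjusted p under 0.05 and none of them was called. Ccr8, a receptor of T cell subsets and skin-homing cells, had 6.63, 6.56, 6.47 and 6.57 in high arrays, and 7.40, 7.17, 6.67 and 6.78 in low arrays. Its groups did not overlap (difference -0.45, SE 0.14, limma adjusted p = 0.0727), but the high arrays all lay below the negative control median, so the size is uncertain. Ccr8 was called lower with array weights (adjusted p = 0.048) and with the intensity trend and robust fit (adjusted p = 0.0458). It was also called with the replicate block (adjusted p = 0.0468). Among 8 omissions of 1 array it was called in 1, without low replicate 3 (-0.56, adjusted p = 0.023). Over these omissions it ranged from -0.56 to -0.32, with adjusted p up to 0.168. Its sign turned, to 0.06, with the spike-in covariate (adjusted p = 1.0). Cxcr2, the neutrophil receptor, had 9.30, 9.34, 9.16 and 9.07 in high arrays, and 9.53, 9.32, 9.58 and 9.39 in low arrays. It overlapped (difference -0.24, SE 0.094, adjusted p = 0.138), beside the neutrophil list, whose mean was 8.79, 9.10, 9.14 and 8.19 in high arrays and 9.16, 9.65, 9.77 and 9.15 in low arrays. Of its 9 markers only Csf3r, the G-CSF receptor, was called (-0.81, SE 0.08, adjusted p = 0.00065), and the part of these markers in the Cxcr2 value was not tested. Ccr10 differed by -0.26 (SE 0.11, adjusted p = 0.157). The atypical receptors Ackr1 (-0.15), Ackr2 (0.03) and Ackr3 (0.16), and Cxcr1 (0.02), were not called.

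Few ligands and few receptors were called. Of 39 ligand probe sets, 2 were higher and 0 lower (5.13%), with a median difference of -0.02, and of 21 receptor probe sets, 1 was higher and 0 lower (4.76%), with a median of 0.02. The median over all 22206 probe sets was 0.01, and 8.25% were called in either direction. Signals were higher in the high fraction for 16 ligand probe sets (41.0%) and 12 receptors (57.1%), against 52.1% of all probe sets. Leaving out the members below the negative control median in both fractions gave medians of -0.04 for 34 ligand probe sets and 0.02 for 18 receptors. Ligands spanned -0.66 (Xcl1) to 0.60 (Ccl22), and receptors -0.45 (Ccr8) to 0.51 (Ccr2).

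Matched pairs gave no common direction. Ccl22 was called and its receptor Ccr4 was below the negative control median, and Ccr2 was called while its ligand Ccl2 differed by 0.07 and Ccl7 by -0.08. For Cxcr3 and Cxcl10 the values were 0.09 and 0.32, for Ccr6 and Ccl20 they were 0.11 and -0.35, and for Ccr8 and Ccl1 both were -0.45. The difference was 0.94 for Ccr9 and 0.29 for its ligand Ccl25.

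Genes that carry the signal of chemokine receptors inside the cell were called in both directions. Of 42 measured, 4 were higher and 4 lower (19.0% called, against 8.25% of all probe sets), with a median difference of -0.01. Among those higher were Gng2, a G protein gamma subunit (0.58, SE 0.11, limma adjusted p = 0.0122), Rgs18, a regulator that ends G protein signalling (0.57), and Grk5, a receptor kinase (0.37). Among those lower were Rgs16, another such regulator (-0.52), Plcb2, a phospholipase activated by G proteins (-0.45, SE 0.079, adjusted p = 0.0104), and Grk6, a receptor kinase (-0.38). After quantile normalization 2 were higher and 8 lower, so the split depended on scaling. Of the 42, only 1 lay below the negative control median in both fractions, against 23.9% of all probe sets. The list was also chosen with earlier results known. The shares called are therefore not like for like, and their difference was not tested. Of 8 genes that modify or cleave chemokines and their receptors, Adam17, a sheddase, was called (0.41, SE 0.12, adjusted p = 0.0493).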

How the data were processed

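Gene expression was measured on 8 arrays of sorted splenic cDC1, 4 per fraction, grouped by the sample titles. The values are log2 signals that the authors deposited; the submitters' processing notes name RMA and Affymetrix Expression Console 1.1, and the labels' protocols name the Whole Transcript Plus labelling kit. RMA corrects background, equalises the probe distributions of the arrays and summarises per probe set, so differences are relative to other probe sets. No genome build used for the annotation is given. The number of arrays limits the precision.

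Of 28846 rows, 6640 controls were left out. Of the 22206 probe sets tested, 19572 had 1 symbol, 2634 were unnamed and none had several. The fractions were compared (TMRM/MG-high minus TMRM/MG-low) with lmFit and eBayes (limma 3.58.1, R 4.3.3), two-sided, without a block, with Benjamini-Hochberg adjustment over all of them and a threshold of 0.05. Intervals are 95% intervals of the moderated fit. Tested on simulated data with 200 of 22206 probe sets changed in this comparison, the fit recovered 49% of changes of 0.5 and 95% of changes of 1 (log2), with 4 false calls among 148. The reported comparison called 1831 probe sets, more than were changed in the simulation. The simulated shares therefore do not give the power of the reported comparison. Figures used matplotlib 3.10.9.

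The members and lists, including genes singled out for marker lists, were chosen with earlier results of these data known. Values per array are given for called members, for those above the 95th percentile of the negative controls in a fraction, for a fixed set of dendritic cell receptors and ligands, and for others near the threshold, without overlap or beside a called member, which were chosen after their values were seen. Genes of the lists were represented by the probe set of highest mean. Alternatives were the replicate block, quantile normalization, median centring, array weights, a robust fit with an intensity trend, a filter on dim probe sets, an unmoderated test, other thresholds, 1 row per gene, the spike-in covariate and leaving out each array.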

Additional observations from a re-analysis of the deposited data

Results flagged for a closer look

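Within the 4 arrays of a fraction, 6 of 118 groups of member values held 1 array apart from the rest by Dixon's criterion, and chance gives about 1 in 20. Ackr3 was 7.71 in high replicate 1, against 7.96 to 8.0 in the other high arrays. Ccl28 was 8.53 in high replicate 1, against 8.22 to 8.24. Cxcl9 was 12.21 in high replicate 1, against 12.10 in the others. Ccl24 was 8.21 in high replicate 2, against 8.46 to 8.51. Ccl3 was 11.39 in low replicate 3, against 11.73 in each of the others. Cxcl14 was 6.09 in low replicate 1, against 6.37 to 6.41, all below the negative control median.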

How the results depend on the processing

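No called member changed sign under any alternative. The 3 calls of higher members became 2 after quantile normalization, median centring, an intensity trend with a robust fit or the replicate block, and 0 with the spike-in covariate, with the unmoderated test or at a threshold of 0.01. The count of lower members, 0 as reported, was 1 with array weights and with the intensity trend (Ccr8 in both), 2 at a threshold of 0.1 and 3 with the replicate block (Xcl1, Ccr8 and Ccl1). Leaving out 1 array gave 0 to 3 higher and 0 to 4 lower members; the 4 were Xcl1, Cxcl12, Ccr8 and Ccl20, without low replicate 3. Higher members were 0 without high replicate 2 or 3 or low replicate 1, 2 or 4, and 1 when high replicate 4 was left out. Fewer arrays also lower the power. The ligand median of -0.02 was -0.0809 after quantile normalization, 0.0838 with the spike-in covariate and -0.0541 to -0.00792 on leaving out an array other than low replicate 3 (-0.076 without it). Signalling genes, 4 higher and 4 lower, were 7 and 7 with the intensity trend, 2 and 8 after quantile normalization, 0 and 0 with the spike-in covariate, the unmoderated test or a threshold of 0.01, and 4 and 7 at 0.1. On leaving out 1 array they were 1 to 4 and 1 to 4. With the spike-in covariate limma called 0 members, and the sign of Xcl1 (0.07), Cxcl12 (0.03) and Ccr8 (0.06), each lower but not called as reported, turned, as did that of other uncalled members with smaller differences. The cause of these changes was not tested. Spike-in levels did not overlap between the fractions, so a fit with this covariate can hardly separate them from the fraction. With the 95th percentile of the negative controls as the mark, 47 members lay below it in both fractions, against 8 with the median. Samples with the same replicate number did not all deviate together (correlations of 0.271, 0.0548, 0.0152 and 0.0391), and not every sample correlated best with its own number, so the numbers were not taken as pairs. These correlations ran over all tested probe sets and leave pairing open. Neutrophil and plasmacytoid dendritic cell marker means ranked alike by number in both fractions. The means of the other cell type lists, T cell markers among them, did not rank fully alike. For cDC2 markers, replicate 4 was the highest and replicate 3 the lowest in both fractions. With the replicate block, Cxcl10 was not called (limma adjusted p = 0.067).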
